A study of Homo sapiens with 18 samples.

Results

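Integrin and laminin subunits were followed across RNA sequencing libraries of MiaPaCa-2, a human cell line established from a pancreatic carcinoma. The set was taken by gene symbol from the count table: every integrin alpha chain (symbols that begin with ITGA), integrin beta chains (ITGB), and laminin alpha, beta and gamma chains (LAMA, LAMB, LAMC). It held 39 gene identifiers with 38 symbols, of 57445 identifiers in all: 18 integrin alpha, 8 integrin beta and 12 laminin genes. ITGB3 stood under 2 identifiers, one of which had no count in any library. In all, 29 members had enough counts to be tested and 10 identifiers did not. A mean of 10 CPM in at least 1 group was reached by 19. CPM are counts per 1000000 of a library's counts in tested genes, after TMM scaling.

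Integrins are cell surface receptors, each a pair of one alpha and one beta chain, that tie the cytoskeleton to matrix proteins outside the cell. Laminins are secreted three-chain proteins, with one alpha, one beta and one gamma chain each, and they form the sheet of basement membranes. The nerve is rich in laminin, because Schwann cells and the perineurium are wrapped in basement membrane. The classical laminin receptors are the integrins that pair alpha 3, alpha 6 or alpha 7 with beta 1, and alpha 6 with beta 4.

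The study asked how cells that lead an invasion along the nerve, called leaders, differ from cells that lag behind, called laggers. The parental cells (labelled In vitro) did not go through injection. Cells of the other 5 groups (labelled In vivo) were collected after injection into the sciatic nerve: laggers of passage 1 and leaders of passages 1, 2, 3 and 4, and part of the leaders was grown in culture and injected again for the next passage. All 6 groups carry the genotype label WT and hold 3 libraries each, 18 in all. The sources used here do not give the host animal, how reads of the host were treated, or whether RNA was taken at harvest or after regrowth. No label ties replicates to separate animals or cultures, and p-values then measure only how far these samples spread, which may be technical. In such bulk samples, fewer cells of a type and less RNA per cell cannot be told apart.

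Counts assigned to genes ran from 15113462 to 39373248 a library. Unaligned reads took 24.8% of all entries in passage 3 leader replicate 2, the highest of the 18. Mitochondrial genes took 0.472% to 0.873% of gene counts in parental libraries, and in injected ones 1.95% to 8.57%. VIM, KRT8 and KRT18, expressed by MiaPaCa-2, were at 1763 CPM or more in every library. KRT8 and KRT18 were higher in all 5 injected groups. Their means there were 6291 to 9580 and 5845 to 9977 CPM, against 2465 and 2419 CPM in the parental line. EPCAM and CDKN2A, read beside them, were at most 0.443 and 0.420 CPM in any library. The 14 Schwann cell markers summed to 237 to 283 CPM in parental libraries, of which the myelin gene MBP held 214 ± 18.6 CPM (SD, n = 3), and to 37.1 to 98.9 CPM in injected ones. Of the 14, 6 were tested. MBP was lower in all 5 injected groups. EGR2, a regulator of myelination, was higher in all 5 (0.0415 ± 0.0718 CPM in the parental line and 10.7 ± 3.81 CPM in laggers, with means of 3.39, 4.31, 2.38 and 1.56 CPM over leader passages 1 to 4). CDH19 was higher in laggers and passage 1 leaders, at 1.20 ± 1.54 and 1.31 ± 1.16 CPM against 0. The part of such cells in the results was not tested.

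Against the parental line, the laminin chain gene LAMB4 and the integrin genes ITGA6, ITGB8 and ITGA11 were higher in all 5 injected groups, and ITGB5 and LAMA4 were lower in all 5. Of the 29 tested members, 24 passed the test in at least 1 of these 5 comparisons, beside 60.5% of all tested genes. Of the members 5 passed in none, and 0 passed in both directions, beside 0.809% of all tested genes. Of all tested genes 7.32% were higher in all 5 and 5.96% lower in all 5. The test was the quasi-likelihood test of edgeR with p adjusted over all 16187 tested genes by the Benjamini-Hochberg method, and a gene passed at an adjusted p under 0.05. The 5 comparisons share the parental libraries and are not independent of each other.

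In passage 1 laggers 13 members passed, 7 higher and 6 lower, beside 39.3% of all tested genes. In passage 1 leaders 17 passed, 10 higher and 7 lower, beside 45.7% of all genes. In passage 2 leaders 12 passed, 9 higher and 3 lower, beside 29.9% of all genes. In passage 3 leaders 12 passed, 10 higher and 2 lower, beside 24.6% of all genes. In passage 4 leaders 14 passed, 12 higher and 2 lower, beside 27.7%, and 9 passed without parental replicate 1. The members' share was 44.8%, 58.6%, 41.4%, 41.4% and 48.3% in the same order, so in passage 1 laggers it was near the background. The median log2 fold change of the tested members was 0.32, 0.08, 0.46, 0.96 and 0.66, against 0.09, 0.07, 0.00, 0.01 and 0.03 over all tested genes. Higher calls took 21.5%, 23.2%, 15.1%, 13.8% and 14.8% of all genes, and lower calls 17.8%, 22.4%, 14.8%, 10.8% and 12.9%.

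**Figure D1:**
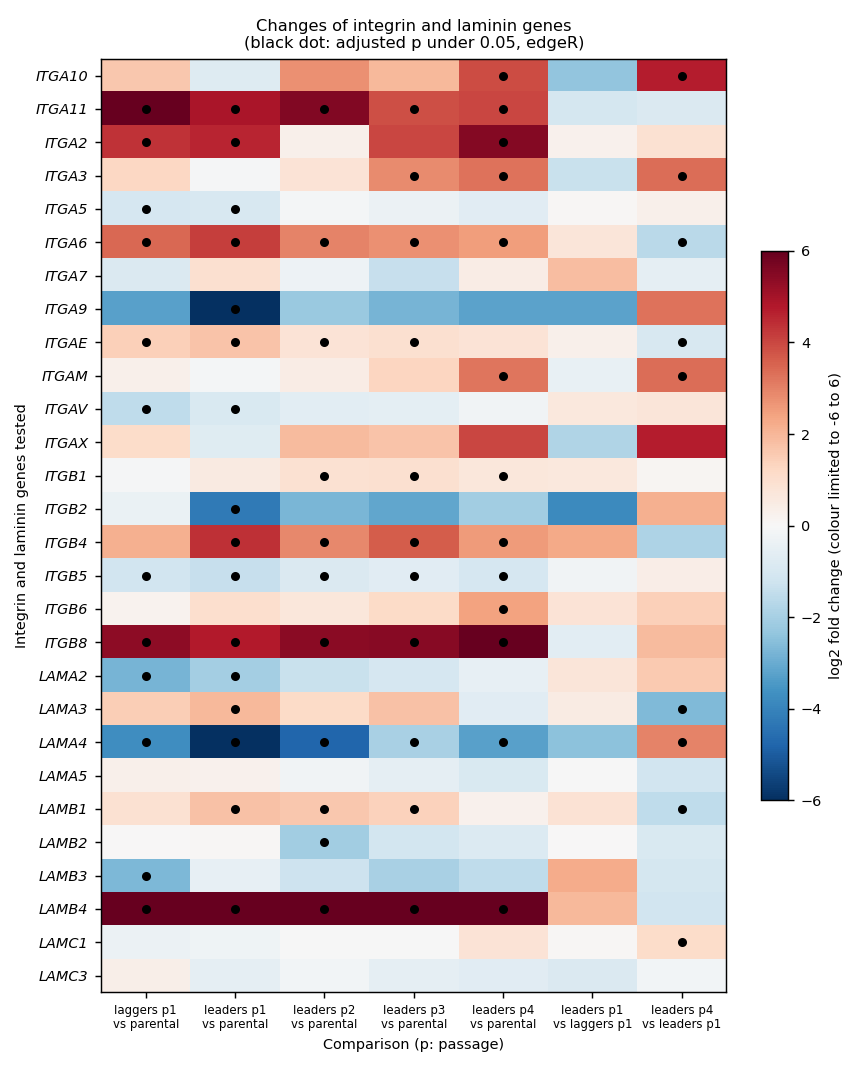
Log2 fold change of the tested integrin and laminin genes that are reported here (rows) in 7 comparisons (columns), coloured from blue (lower in the first-named group) to red (higher), with a black dot where the adjusted p was under 0.05 with edgeR. The rows of LAMB4, ITGA6, ITGB8 and ITGA11 are red with a dot in all 5 comparisons with the parental line, and the column of passage 1 leaders against laggers holds no dot.

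ITGA6 encodes the alpha chain of the laminin receptors alpha 6 beta 1 and alpha 6 beta 4. The 3 parental libraries held 9.16, 14.8 and 11.2 CPM and the laggers 106, 198 and 73.8 CPM. Passage 1 leaders held 301, 51.6 and 268 CPM, with replicate 2 far below the other two. In later leaders it was 110, 70.7 and 93.6 CPM at passage 2, 73.3, 59.9 and 102 CPM at passage 3, and 64.0, 69.1 and 70.4 CPM at passage 4. Every injected library lay above every parental one. The log2 fold change against the parental line was 3.43 ± 0.51 (SE; adjusted p = 0.000109) in laggers and 4.14 ± 0.53 (adjusted p = 2.07e-05) in passage 1 leaders. It was 2.97 ± 0.50, 2.74 ± 0.50 and 2.53 ± 0.50 at passages 2, 3 and 4, with adjusted p = 0.000470, 0.000989 and 0.00147. Passage 4 was lower than passage 1 leaders by -1.61 ± 0.48 on the log2 scale (adjusted p = 0.0261). These 2 groups overlapped, and the adjusted p ran from 0.00158 to 0.112 as single libraries were left out, passing only without passage 1 leader replicate 2.

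ITGA3, the alpha chain of the laminin receptor alpha 3 beta 1, followed another course. Its parental values were 40.9, 40.0 and 60.0 CPM, and those of passage 1 leaders 57.5, 16.0 and 59.5 CPM. Laggers held 44.7, 59.2 and 228 CPM, so that 1 library stood apart. Values were 60.1, 99.6 and 86.9 CPM at passage 2, then 346, 368 and 286 CPM at passage 3 and 315, 377 and 655 CPM at passage 4. All 6 libraries of the last 2 passages lay above all others. ITGA3 rose by 2.83 ± 0.56 (log2; adjusted p = 0.00192) at passage 3 and 3.26 ± 0.57 (adjusted p = 0.000671) at passage 4, and passage 4 exceeded passage 1 leaders by 3.34 ± 0.58 (adjusted p = 0.00108). The log2 changes of laggers, 1.24 (adjusted p = 0.0769), and of leaders of passages 1 and 2, -0.08 and 0.81 (adjusted p = 0.913 and 0.267), did not pass.

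ITGAV and ITGA5 are the alpha chains of receptors for vitronectin, fibronectin and other proteins that carry the RGD motif. ITGAV held 169, 274 and 142 CPM in the parental line, 86.9, 60.7 and 54.5 CPM in laggers, and 107, 114 and 90.0 CPM in passage 1 leaders. In both passage 1 groups every library lay below the parental ones. It fell by 1.53 ± 0.32 on the log2 scale in laggers (adjusted p = 0.00156) and fell by 0.91 ± 0.32 in passage 1 leaders (adjusted p = 0.0274). The second call did not hold without parental replicate 2 (adjusted p = 0.147) or without any one of the 3 leader libraries (0.0597 to 0.0928). At passages 2, 3 and 4 the means were 126 ± 2.06, 131 ± 74.7 and 169 ± 10.2 CPM (SD, n = 3), and adjusted p was 0.144, 0.202 and 0.666.

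ITGA5 held 138, 120 and 198 CPM in the parental line, 57.2, 81.7 and 84.7 CPM in laggers and 80.2, 73.9 and 77.5 CPM in passage 1 leaders, with no overlap. It fell by 1.03 ± 0.26 in laggers (log2; adjusted p = 0.00512) and fell by 0.98 ± 0.26 in passage 1 leaders (adjusted p = 0.00563). Later leaders averaged 141 ± 30.4, 118 ± 28.1 and 95.3 ± 25.7 CPM (SD, n = 3) and did not pass (adjusted p = 0.777, 0.324 and 0.0594). The ITGA5 promoter is shown because it was 1 of 3 among the members' promoters with a match to the motif TGANTCA, which AP-1 factors bind, and it also held GGAATG, a motif of TEAD factors. Promoters here are the 250 bases before and 50 after a RefSeq gene start on GRCh38.p14, both strands were searched, and the matches are in capitals. The ITGA5 window is chr12:54419217-54419516, minus strand, and its 2 matches do not overlap.
ITGA5: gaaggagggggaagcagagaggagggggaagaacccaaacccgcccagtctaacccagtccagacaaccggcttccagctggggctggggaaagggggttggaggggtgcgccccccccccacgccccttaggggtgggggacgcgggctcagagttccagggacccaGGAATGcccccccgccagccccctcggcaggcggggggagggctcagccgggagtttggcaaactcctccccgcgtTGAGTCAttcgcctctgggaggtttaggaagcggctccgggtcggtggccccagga
Among 33 promoter entries, which cover 26 of the 38 symbols, TGANTCA was in 3 and GGAATG in 4. Over all 35116 promoters in the table the shares were 7.71% and 14.0%. A match is a description of the letters only.

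ITGAE, the alpha chain of the E-cadherin receptor of lymphocytes, was measured at 11.8, 10.5 and 7.44 CPM in the parental line. Laggers held 37.5, 20.0 and 22.0 CPM and passage 1 leaders 29.6, 34.9 and 34.4 CPM. Its later values were 14.3, 15.9 and 22.9 CPM, 26.8, 16.5 and 14.7 CPM, and 18, 21.0 and 12.6 CPM at passages 2, 3 and 4. Every injected library was above every parental one. It rose by 1.42 ± 0.31 in laggers (log2; adjusted p = 0.00196) and 1.73 ± 0.31 in passage 1 leaders (adjusted p = 0.000339). The rises at passages 2 and 3, 0.84 and 0.96 (adjusted p = 0.0475 and 0.0300), were each lost on leaving out several single libraries, with adjusted p up to 0.210 and 0.183. At passage 4 the log2 change was 0.80 (adjusted p = 0.0616), and passage 4 was below passage 1 leaders by -0.94 ± 0.30 (adjusted p = 0.0391; 0.0428 to 0.183 with single libraries left out). The gene shares 7.59% of its exon bases with other genes, among them HASPIN on the opposite strand, and the library kit does not mark strand. CDH1, the E-cadherin gene, had no count in the parental line and averaged 8.68 ± 7.01 CPM (SD, n = 3) in passage 1 leaders. It averaged 0.485 ± 0.575 CPM in laggers (SD, n = 3), and 1.40, 3.55 and 0.194 CPM over leader passages 2 to 4.

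ITGAM and ITGAX, alpha chains of leukocyte integrins that pair with ITGB2, are neighbours on chromosome 16. ITGAM held 1.67, 1.17 and 3.88 CPM in the parental line, 1.70, 3.78 and 2.87 CPM in laggers, and 1.88, 2.87 and 1.45 CPM in passage 1 leaders. Passage 2 held 1.67, 3.80 and 3.69 CPM and passage 3 held 3.32, 7.52 and 5.42 CPM. Passage 4 held 9.51, 18.4 and 34.8 CPM, above every other library. It rose by 3.23 ± 0.56 against the parental line (log2; adjusted p = 0.000633) and by 3.34 ± 0.57 against passage 1 leaders (adjusted p = 0.000996). The count ratio to the parental line was 10.9 with all libraries and 6.88 without passage 4 replicate 3, and the log2 value was 3.87 without parental replicate 3. ITGAX held 1.07, 0.291 and 2.51 CPM at passage 4 and at most 0.811 CPM elsewhere, a log2 difference of 3.99 that did not pass (adjusted p = 0.0833).

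ITGB2, the beta chain that both need, was not high in those libraries, at 0, 0.749 and 0.0330 CPM. It was lower in passage 1 leaders than in the parental line (0.0538 ± 0.0640 against 1.12 ± 0.857 CPM, SD, n = 3; log2 -4.22 ± 1.45, adjusted p = 0.0260). That call was lost without parental replicate 2 or without passage 1 leader replicate 1 or 2, and the log2 value was -5.46 without leader replicate 3. The 14 leukocyte markers summed to 19.9 to 43.5 CPM in the parental line, most of it from CORO1A at 28.7 ± 11.6 CPM (SD, n = 3). They summed to 8.13 to 8.62 CPM in laggers, to 5.59 to 8.43, 6.34 to 8.44 and 5.70 to 9.85 CPM over leader passages 1 to 3 and to 3.44 to 5.90 CPM at passage 4. Of the 14, 8 had any count in the parental line, 9 in laggers, and 9, 7, 8 and 7 over leader passages 1 to 4. Of the 5 markers tested, CORO1A, CD68 and FCER1G were lower at each leader passage. PTPRC, the leukocyte gene for CD45, had 0 counts in the parental line and laggers and was higher at each leader passage, at 2.23, 3.09, 2.51 and 0.675 CPM (adjusted p = 0.00108, 0.00149, 0.00223 and 0.00915). The part of such cells in the result was not tested.

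ITGA10, a collagen receptor chain, was also highest at passage 4, with 31.0, 12.4 and 13.1 CPM. The parental line held 1.67, 1.99 and 0.0370 CPM and passage 1 leaders 0.0736, 0.0495 and 2.03 CPM. Laggers, passage 2 and passage 3 averaged 3.88 ± 4.31, 8.27 ± 4.50 and 4.78 ± 1.72 CPM (SD, n = 3). Passage 4 did not overlap the parental line or passage 1 leaders. ITGA10 rose by 3.91 ± 1.14 against the parental line (log2; adjusted p = 0.0181), a call lost without parental replicate 1 or 3 or passage 4 replicate 1 (adjusted p = 0.0518 to 0.0614). Against passage 1 leaders the rise was 4.69 ± 1.21 (adjusted p = 0.0126), and it passed with each library left out, at 4.13 to 8.12, the highest without passage 1 leader replicate 3.

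ITGA11 and ITGA2, collagen receptor chains, were below 10 CPM throughout. ITGA11 had 2 counts in the parental libraries together and group means of 0.347 to 1.53 CPM after injection. Its log2 fold change was 5.96 in laggers and 4.89, 5.57, 3.87 and 4.01 over leader passages 1 to 4 (adjusted p = 0.00177, 0.00488, 0.00385, 0.0358 and 0.0266). Lagger replicate 3 held 3.92 CPM, and without it the count ratio of laggers to the parental line was 17.7 in place of 66.1. At passage 2 the ratio was 59.0, or 29.6 without leader replicate 1, and at passage 4 it was 20.1, or 13.1 without leader replicate 2. The passage 3 call was lost without any parental library or without leader replicate 2 or 3, and the passage 4 call without any parental library or without leader replicate 2. Both were also lost with limma-voom in place of edgeR (adjusted p = 0.0965 and 0.0713). ITGA11 marks fibroblasts, and 11 fibroblast markers summed to 206 to 392 CPM in the parental line, 1317 to 2243 CPM in laggers, 1028 to 2369, 797 to 1575, 614 to 1454 and 326 to 567 CPM over leader passages 1 to 4. Most of the parental sum came from COL1A1 and FBLN1, at 160 ± 70.5 and 101 ± 32.5 CPM (SD, n = 3). In injected groups most came from COL1A2 and COL3A1, at 627 ± 227 and 876 ± 272 CPM in laggers (SD, n = 3). PDGFRB, THY1, COL6A3 and PI16 had group means of at most 0.885 CPM. Of the 9 markers tested, 5 were higher and 0 lower in laggers, and over leader passages 1 to 4 there were 5, 3, 3 and 3 higher and 2, 0, 0 and 1 lower. Beside these counts, 39.3%, 45.7%, 29.9%, 24.6% and 27.7% of all tested genes passed in the same order. COL1A2, COL3A1 and PDGFRA rose in all 5 groups. COL1A2 went from 0.880 ± 0.110 CPM in the parental line to 719 ± 260 CPM in passage 1 leaders (SD, n = 3), and PDGFRA from 0.112 ± 0.140 to 63.7 ± 24.9 CPM at passage 2. DCN and LUM rose in laggers and passage 1 leaders. COL1A1 fell in passage 1 and passage 4 leaders, and FBLN1 in passage 1 leaders. The part of such cells in the result was not tested.

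ITGA2 had 5 parental counts, all in replicate 1. It rose by 4.33 in laggers, 4.58 in passage 1 leaders and 5.50 at passage 4 (log2; adjusted p = 0.0359, 0.0236 and 0.0162). With the replicate number as a block, the lagger value was 3.32 with adjusted p = 0.102. Lagger replicate 3 at 2.80 CPM and passage 4 replicate 3 at 5.15 CPM held most of its counts, and the log2 values without them were 1.61 (adjusted p = 0.445) and 4.02 (0.0696). The passage 1 leader call was lost without replicate 2 (0.0737), and all 3 calls were lost without parental replicate 2 or 3. Without parental replicate 1, which held every parental count, the fitted values were 7.62, 7.81 and 8.74. ITGA9, a tenascin receptor chain, was lower in passage 1 leaders, with 1 count in the 3 libraries and 167 in the parental line (log2 -6.50 ± 1.93; adjusted p = 0.0117). The parental line exceeded those leaders 112-fold by counts, with a counting interval of 19.9 to 4457, or 67.5-fold without parental replicate 3. Its log2 value was -8.44 without passage 1 leader replicate 2. ITGA7, a laminin receptor chain of muscle and Schwann cells, had group means of 0.146 to 0.759 CPM and passed in no comparison. ITGA1, ITGA4, ITGA8, ITGA2B, ITGAD and ITGAL were not tested, with group means of at most 0.254 CPM.

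**Figure D2:**
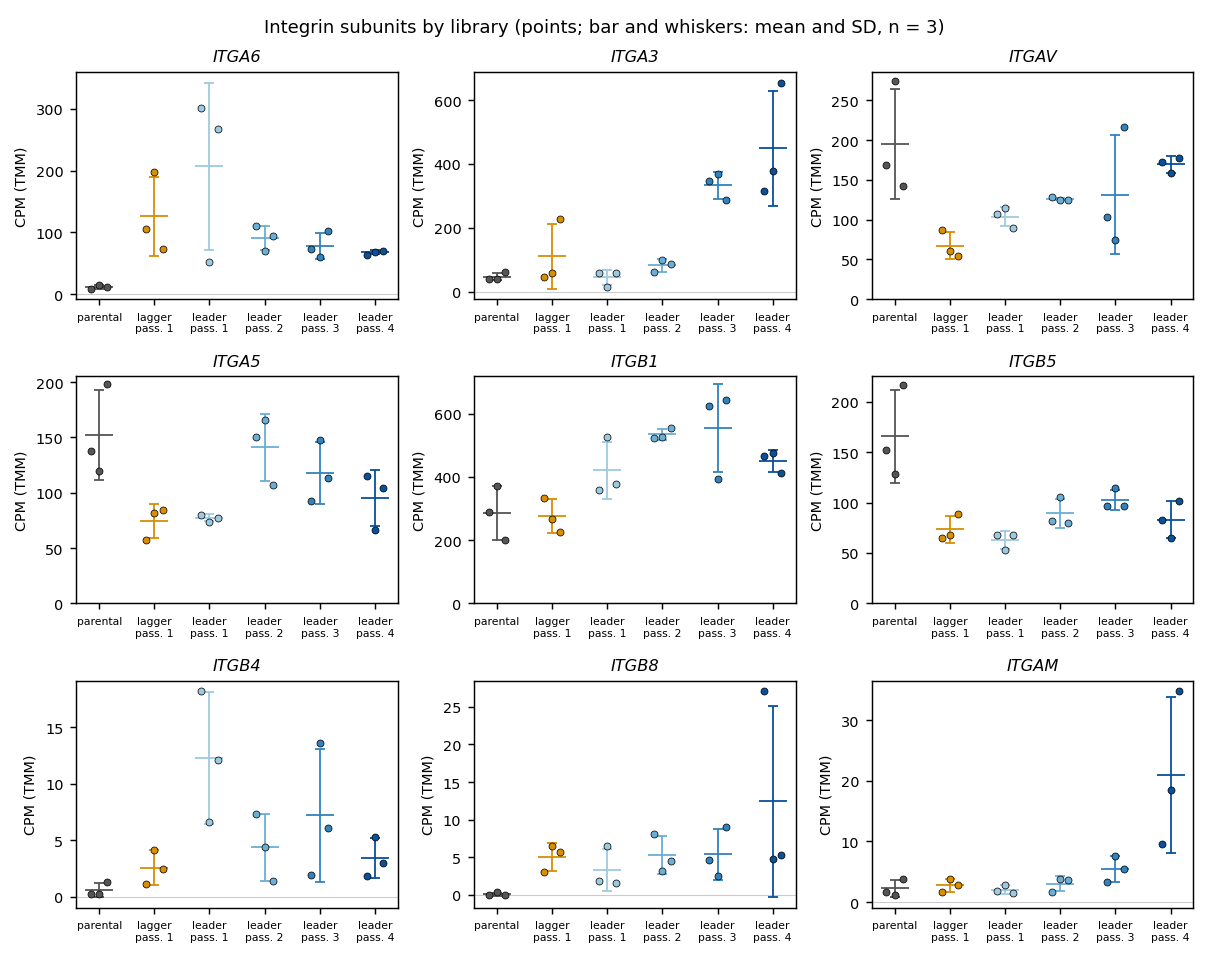
Level of 9 integrin genes in CPM on TMM-scaled library sizes (vertical axes, each with its own scale) in the 6 groups (horizontal axes), 1 point for each of the 3 libraries of a group, with the mean as a bar and the SD as whiskers. ITGA6 is above the parental libraries in every injected library, ITGA3 is high only at passages 3 and 4 apart from lagger replicate 3 at 228 CPM, and ITGAM is highest at passage 4.

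ITGB1, the beta chain shared by most matrix receptors, held 290, 371 and 199 CPM in the parental line and 334, 268 and 227 CPM in laggers. Leaders held 359, 525 and 378 CPM at passage 1, 522, 527 and 556 CPM at passage 2, 626, 394 and 643 CPM at passage 3 and 466, 477 and 412 CPM at passage 4. The leader libraries of passages 2 to 4 all lay above the parental ones. It rose by 0.90 ± 0.24, 0.95 ± 0.24 and 0.66 ± 0.24 at these passages (log2; adjusted p = 0.00941, 0.00826 and 0.0474). The passage 4 call was lost without parental replicate 1 or 3 or any leader library (adjusted p up to 0.207), and the passage 2 call without parental replicate 3 (0.0518). Laggers and passage 1 leaders, at -0.05 and 0.56, did not pass (adjusted p = 0.886 and 0.0642).

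ITGB5, a vitronectin receptor chain that pairs with ITGAV, was lower after injection. The parental line held 152, 128 and 217 CPM, laggers 64.5, 67.4 and 88.7 CPM and passage 1 leaders 68.2, 53.1 and 67.5 CPM. At passages 2, 3 and 4 it was 81.7, 106 and 79.9 CPM, 96.3, 114 and 96.7 CPM, and 82.3, 65.2 and 102 CPM. No injected library reached a parental one. Its log2 change was -1.17 ± 0.22 in laggers and -1.39 ± 0.23, -0.89 ± 0.22, -0.69 ± 0.22 and -0.99 ± 0.22 over leader passages 1 to 4 (adjusted p = 0.000782, 0.000151, 0.00717, 0.0314 and 0.00398). The passage 3 call was lost without parental replicate 3 (adjusted p = 0.178) or leader replicate 1 or 3.

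ITGB4, the chain that joins ITGA6 in hemidesmosomes, held 0.224, 0.255 and 1.33 CPM in the parental line and 1.13, 4.17 and 2.45 CPM in laggers. Leaders held 18.2, 6.58 and 12.1 CPM at passage 1, 7.35, 4.41 and 1.44 CPM at passage 2, 1.94, 13.6 and 6.05 CPM at passage 3 and 1.88, 5.33 and 3.04 CPM at passage 4. Every leader library lay above every parental one, and the lagger range overlapped the parental range. It rose by 4.39 ± 0.89, 2.90 ± 0.84, 3.62 ± 0.86 and 2.54 ± 0.84 over leader passages 1 to 4 (log2; adjusted p = 0.000867, 0.0167, 0.00636 and 0.0328). In laggers the difference was 2.14 ± 0.84 (adjusted p = 0.0521). The passage 2 and 4 calls were lost without parental replicate 1 or 2, or without leader replicate 1 at passage 2 and replicate 2 at passage 4. Without parental replicate 3 the log2 values were 5.65, 4.16, 4.88 and 3.80 at passages 1 to 4, and the passage 3 value was 2.81 without leader replicate 2.

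ITGB8, a chain that pairs with ITGAV and activates TGF-beta, had 13 parental counts, all in replicate 2 (0, 0.332 and 0 CPM). Laggers held 2.98, 6.52 and 5.67 CPM, passage 1 leaders 1.88, 6.53 and 1.58 CPM, and passage 2 leaders 8.11, 3.14 and 4.57 CPM. Passage 3 held 4.65, 2.45 and 9.05 CPM and passage 4 held 27.1, 4.79 and 5.35 CPM. All injected libraries exceeded all parental ones. By counts the ratio to the parental line was 40.7 in laggers and, over leader passages 1 to 4, 25.3, 42.6, 49.3 and 94.2 (adjusted p = 0.00126, 0.00211, 0.00175, 0.00202 and 0.000517). The passage 4 ratio was 41.8 without leader replicate 1, the passage 1 ratio 14.2 without leader replicate 2, and the passage 3 ratio 28.9 without leader replicate 3. The fitted log2 values leaned on the parental counts: in laggers it was 5.36 ± 1.10, or 4.71 without parental replicate 1 and 9.93 without parental replicate 2, and all 5 calls passed with each library left out. ITGB6 was at most 1.59 CPM and rose at passage 4 (1.25 ± 0.317 against 0.227 ± 0.143 CPM, SD, n = 3; log2 2.41 ± 0.74, adjusted p = 0.0237), a call lost without parental replicate 1 or 3 or leader replicate 1 or 3. It shares 20.6% of its exon bases with another gene model. ITGB7 and ITGB3 were not tested, and ITGB7 was at most 0.144 CPM in any library. The gene model that holds the empty ITGB3 identifier covers 51.6% of ITGB3's exon bases, and reads there fit both models, so the ITGB3 level, at most 0.581 CPM, is uncertain.

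Among laminin alpha chains, LAMA5, the broad chain of adult basement membranes, had the highest level and passed in no comparison. Its means were 125 ± 53.9 CPM in the parental line, 153 ± 84.0 CPM in laggers, and 149 ± 25.5, 108 ± 14.4, 87.0 ± 38.9 and 66.6 ± 28.6 CPM over leader passages 1 to 4 (SD, n = 3). Passage 4 against passage 1 leaders gave a log2 difference of -1.16 ± 0.43 (adjusted p = 0.0689).

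LAMA4, a chain of vessel, muscle and nerve laminins, was 51.1, 51.0 and 56.5 CPM in the parental line. It was 1.80, 1.44 and 8.75 CPM in laggers, 0.773, 0 and 1.29 CPM in passage 1 leaders and 1.58, 2.63 and 1.70 CPM at passage 2. Passage 3 held 19.0, 16.0 and 6.11 CPM and passage 4 held 6.34, 5.66 and 4.53 CPM, so all injected libraries stayed below the parental ones. Its log2 change was -3.75 ± 0.75 in laggers, and -6.22 ± 0.86, -4.75 ± 0.79, -1.95 ± 0.69 and -3.26 ± 0.73 over leader passages 1 to 4 (adjusted p = 0.00107, 4.03e-05, 0.000393, 0.0488 and 0.00375). The passage 3 call was lost on leaving out any 1 of its 6 libraries (adjusted p = 0.0796 to 0.166), and the lagger value was -4.97 without lagger replicate 3. In passage 1 leaders it was -5.62 without replicate 2 and -6.98 without replicate 3. Passage 4 was above passage 1 leaders by 2.96 ± 0.77 (adjusted p = 0.0137), or 3.72 without passage 1 leader replicate 3.

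LAMA3, the alpha chain of the epithelial laminin that also holds LAMB3, had 1.24, 1.66 and 1.29 CPM in the parental line and 2.02, 10.3 and 4.15 CPM in passage 1 leaders. It rose there by 1.96 ± 0.64 (log2; adjusted p = 0.0202), and by 1.20 without leader replicate 2 (adjusted p = 0.134). The call was also lost without parental replicate 1 or 3. Passage 4 held 1.56, 0.583 and 0.496 CPM and was below passage 1 leaders by -2.64 ± 0.67 (adjusted p = 0.0117), or -1.84 without passage 1 leader replicate 2 (0.0622). That call was also lost without passage 4 replicate 3 (0.0613), and the value was -3.33 without passage 4 replicate 1. LAMA2, the merosin chain of muscle and of Schwann cells, had a parental mean of 7.05 ± 3.39 CPM (SD, n = 3). Its log2 change was -2.79 ± 0.60 in laggers and -2.06 ± 0.57 in passage 1 leaders (adjusted p = 0.00180 and 0.00786), and the lagger value was -3.52 without lagger replicate 1. LAMA1 had 16 counts, all in passage 2 leader replicate 1. The LAMA3 promoter is shown with that of LAMB3, the partner chain, because the windows held matches to TGANTCA, in capitals. LAMA3 is at chr18:23872770-23873069, plus strand, with 2 matches, and LAMB3 at chr1:209651325-209651624, minus strand, with 1. LAMB3 has 3 starts in the table, and the windows of the other two held none.
LAMA3: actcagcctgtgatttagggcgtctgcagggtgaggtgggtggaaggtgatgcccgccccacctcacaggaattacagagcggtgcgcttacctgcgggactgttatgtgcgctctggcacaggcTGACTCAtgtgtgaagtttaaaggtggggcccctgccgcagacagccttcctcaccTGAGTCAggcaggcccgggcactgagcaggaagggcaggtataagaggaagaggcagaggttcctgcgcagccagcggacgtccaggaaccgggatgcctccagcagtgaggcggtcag
LAMB3: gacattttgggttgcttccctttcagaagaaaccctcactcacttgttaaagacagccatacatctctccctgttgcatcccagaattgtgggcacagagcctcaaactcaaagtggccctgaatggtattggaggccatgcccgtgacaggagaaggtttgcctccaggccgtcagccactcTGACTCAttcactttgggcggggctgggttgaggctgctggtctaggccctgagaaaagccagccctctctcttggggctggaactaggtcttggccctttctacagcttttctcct

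LAMB3 is the beta chain of that epithelial laminin. It held 15.1, 15.1 and 30.1 CPM in the parental line, 0.378, 2.97 and 6.09 CPM in laggers and 33.1, 3.41 and 6.77 CPM in passage 1 leaders. Laggers fell by 2.69 ± 0.84 (log2; adjusted p = 0.0179), a call lost without parental replicate 3 (0.0591) or lagger replicate 2 (0.0564). The lagger log2 value was -3.53 without lagger replicate 3. Passages 2, 3 and 4 averaged 8.57 ± 2.55, 5.20 ± 2.74 and 6.92 ± 3.67 CPM (SD, n = 3), all below the parental range, and did not pass (adjusted p = 0.254, 0.0887 and 0.163).

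LAMB4 and LAMB1 are neighbouring laminin beta genes on chromosome 7, on the same strand. LAMB1 encodes the common beta chain and LAMB4 a beta chain that is less studied. LAMB4 had 1 count in the 3 parental libraries together. It held 4.58, 1.44 and 4.41 CPM in laggers, 12.7, 2.37 and 25.0 CPM in passage 1 leaders, 24.7, 30.8 and 42.4 CPM at passage 2, 8.69, 20.2 and 42.1 CPM at passage 3 and 4.64, 5.20 and 8.19 CPM at passage 4. The mean was highest at passage 2, and laggers had the lowest mean among injected groups. Adjusted p was 0.000130 in laggers and 1.27e-05, 8.03e-06, 1.43e-05 and 8.76e-05 over leader passages 1 to 4. By counts, with a 95% interval for counting error only, the ratio to the parental line was 359 (63.7 to 14251) in laggers. It was 1483 (266 to 58627) in passage 1 leaders, or 885 without replicate 3, and 3563 (639 to 140786) at passage 2. At passage 3 it was 2872 (515 to 113509), or 1549 without replicate 3, and at passage 4 it was 662 (118 to 26196). The single parental count was in replicate 3, and the fitted log2 values without that library were 9.42 to 12.66.

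LAMB1 held 18.7, 17.2 and 18.8 CPM in the parental line and 47.8, 15.8 and 40.8 CPM in laggers. Leaders held 62.5, 32.4 and 92.9 CPM at passage 1, 55.1, 63.7 and 49.7 CPM at passage 2, 30.1, 50.7 and 62.5 CPM at passage 3 and 20.0, 21.3 and 24.8 CPM at passage 4. All leader libraries lay above the parental ones. It rose by 1.78 ± 0.39, 1.62 ± 0.39 and 1.39 ± 0.38 at passages 1 to 3 (log2; adjusted p = 0.00158, 0.00534 and 0.0151), the last lost without leader replicate 3 (0.0753). Laggers at 0.93 and passage 4 at 0.27 did not pass (adjusted p = 0.0635 and 0.635). Passage 4 was below passage 1 leaders by -1.51 ± 0.39 (adjusted p = 0.0123), a call lost without passage 1 leader replicate 3 (0.0744). In passage 1 leaders replicate 2 was the lowest for both genes.

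The promoters of the 2 neighbours are shown because the genes rose together at passages 1 to 3. LAMB4 is at chr7:108130312-108130611 and LAMB1 at chr7:108003112-108003411, both on the minus strand. The LAMB4 window is 39.7% G and C and the LAMB1 window 71.0%, and neither motif was found in either.
LAMB4: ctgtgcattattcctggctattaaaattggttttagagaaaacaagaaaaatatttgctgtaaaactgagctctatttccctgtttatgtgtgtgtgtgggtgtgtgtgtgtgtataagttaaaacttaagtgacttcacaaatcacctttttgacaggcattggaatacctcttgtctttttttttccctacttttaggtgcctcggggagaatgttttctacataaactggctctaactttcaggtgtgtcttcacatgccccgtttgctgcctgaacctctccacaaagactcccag
LAMB1: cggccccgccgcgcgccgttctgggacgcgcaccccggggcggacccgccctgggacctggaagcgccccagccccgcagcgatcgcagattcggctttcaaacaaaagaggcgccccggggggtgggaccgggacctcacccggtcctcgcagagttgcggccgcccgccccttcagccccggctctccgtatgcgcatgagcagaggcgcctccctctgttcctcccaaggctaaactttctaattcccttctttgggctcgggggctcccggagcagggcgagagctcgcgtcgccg

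LAMB2, the beta chain of muscle, kidney and nerve basement membranes, held 24.2, 29.1 and 32.2 CPM in the parental line, 11.7, 43.6 and 32.8 CPM in laggers and 19.9, 42.5 and 27.7 CPM in passage 1 leaders. Passage 2 held 7.64, 5.44 and 6.93 CPM, below all of these. It fell by 2.09 ± 0.41 at passage 2 (log2; adjusted p = 0.00139). At passages 3 and 4 the means were 13.5 ± 4.06 and 16.1 ± 4.58 CPM (SD, n = 3), with adjusted p = 0.0579 and 0.132.

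LAMC1, the common gamma chain, held 176, 205 and 206 CPM in the parental line and 89.5, 171 and 199 CPM in laggers. Leaders held 158, 171 and 158 CPM at passage 1, 238, 192 and 145 CPM at passage 2, 142, 208 and 219 CPM at passage 3 and 261, 235 and 541 CPM at passage 4. It passed in no comparison with the parental line. Passage 4 exceeded passage 1 leaders by 1.09 ± 0.32 (log2; adjusted p = 0.0238), and the difference was 0.59 without passage 4 replicate 3 (adjusted p = 0.187). The call was also lost without any one of the 3 passage 1 libraries. LAMC3 stayed between 3 and 10.7 CPM and passed in no comparison.

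**Figure D3:**
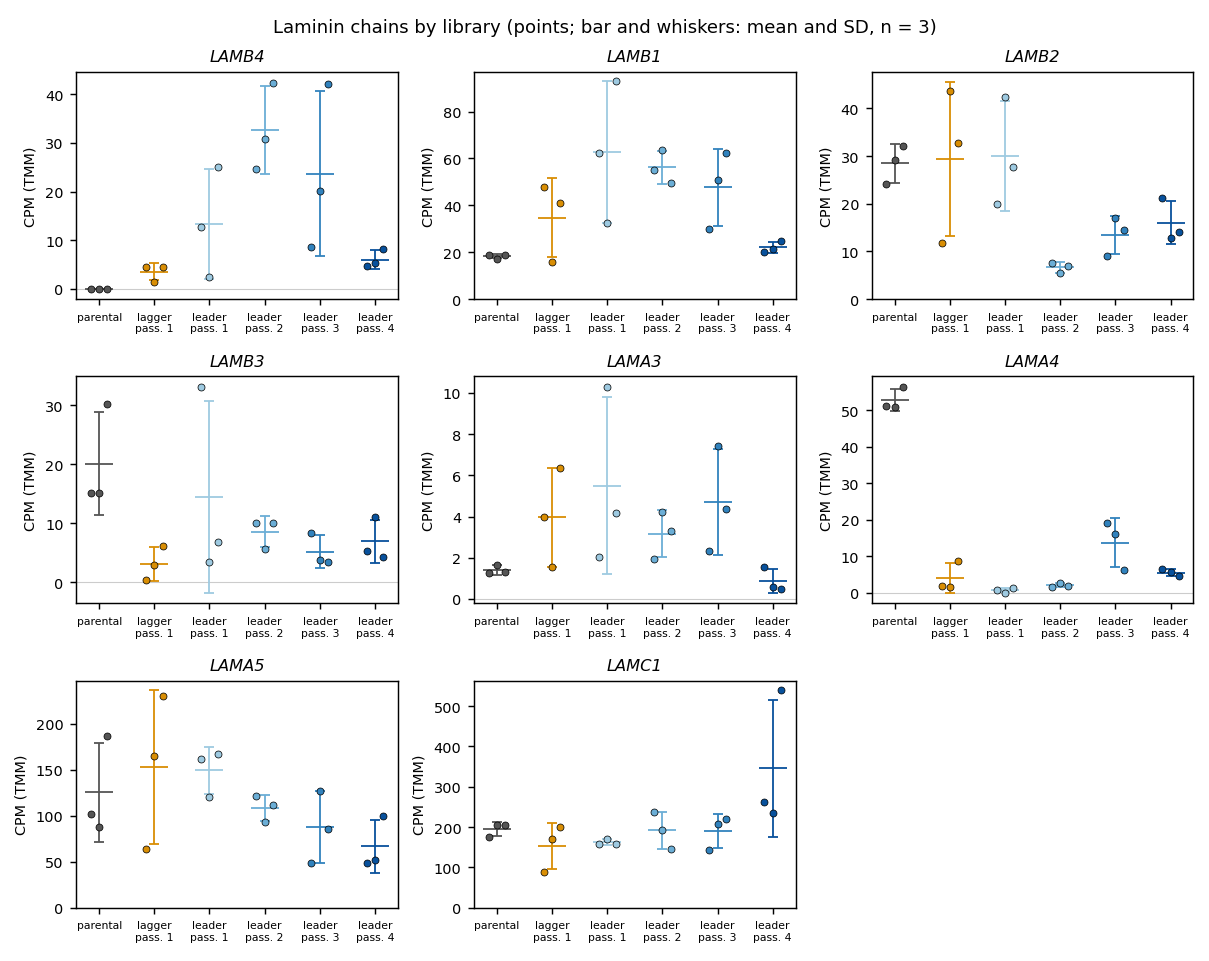
Level of 8 laminin chain genes in CPM on TMM-scaled library sizes (vertical axes, each with its own scale) in the 6 groups (horizontal axes), 1 point for each of the 3 libraries of a group, with the mean as a bar and the SD as whiskers. LAMA4 is at 51.0 to 56.5 CPM in the parental libraries and at or under 19.0 CPM in all others, and LAMB4 is highest at passages 2 and 3.

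Levels of different genes were compared per kilobase of exon, with gene lengths of GENCODE 29. Among integrin alpha genes in the parental line, ITGAV led at 23.8 ± 8.45 CPM per kb, within its spread of ITGA5 at 20.1 ± 5.42 (SD, n = 3), and together they took 45.0% and 38.0% of the alpha sum. ITGA6 took 3.39% there. In laggers ITGA6 had the highest mean, 19.3 ± 9.89 CPM per kb, followed by ITGA3 at 11.3 ± 10.4, which overlapped it. ITGA3 was at 23.3 CPM per kb in lagger replicate 3, where it was first. In lagger replicates 1 and 2 it was at 4.56 and 6.04, below ITGA5 at 7.55 and 10.8 and ITGAV at 10.6 and 7.39. In passage 1 leaders ITGA6 had the highest mean, 31.7 ± 20.7 CPM per kb or 48.9% of the alpha sum, and overlapped ITGAV at 12.6 ± 1.51. In replicate 2 ITGA6 lay below ITGAV, at 7.89 against 13.9 CPM per kb. ITGA5, ITGAV and ITGA6 lay close together at passage 2, at 18.6 ± 4.01, 15.4 ± 0.251 and 14.0 ± 3.05 CPM per kb. ITGA3 led at passages 3 and 4, at 34.0 ± 4.33 and 45.8 ± 18.5 CPM per kb, or 41.3% and 46.1% of the sum, with ITGAV next at 15.9 ± 9.09 and 20.6 ± 1.25. At passage 3 ITGA5, at 15.6 ± 3.70, overlapped ITGAV. ITGB1 had the highest mean of the beta genes in each group, from 64.6% of the beta sum in the parental line to 85.7% at passage 2, and ITGB5 the second.

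LAMA5 took 62.1% of the laminin alpha sum per kb in the parental line, where LAMA4 took 32.4%. In the injected groups LAMA5 took 76.8% to 94.6%, and LAMA4 0.539% in passage 1 leaders and 14.9% at passage 3. Among beta chains LAMB3 and LAMB2 led in the parental line, at 4.28 ± 1.85 and 4.15 ± 0.590 CPM per kb. LAMB1 had the highest mean over leader passages 1 to 4, at 7.69 ± 3.71, 6.90 ± 0.867, 5.87 ± 2.01 and 2.70 ± 0.306 CPM per kb. It was within its spread of LAMB2 at passage 1, at 4.37 ± 1.67, and at passage 4, at 2.34 ± 0.667. In passage 1 leader replicate 2 LAMB1 lay below LAMB2, at 3.98 against 6.18 CPM per kb. LAMB1 and LAMB2 stood level in laggers at 4.27 ± 2.06 and 4.27 ± 2.37. LAMB4 had the second highest mean at passage 2, with 32.4% of the beta sum, and at passage 3, with 27.4%. At passage 3 it was 3.37 ± 2.42 CPM per kb (SD, n = 3) and overlapped LAMB2 at 1.96 ± 0.591. In replicate 1 of that passage LAMB4 lay below LAMB2 and LAMB3, at 1.24 against 1.31 and 1.78 CPM per kb.

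**Figure D4:**
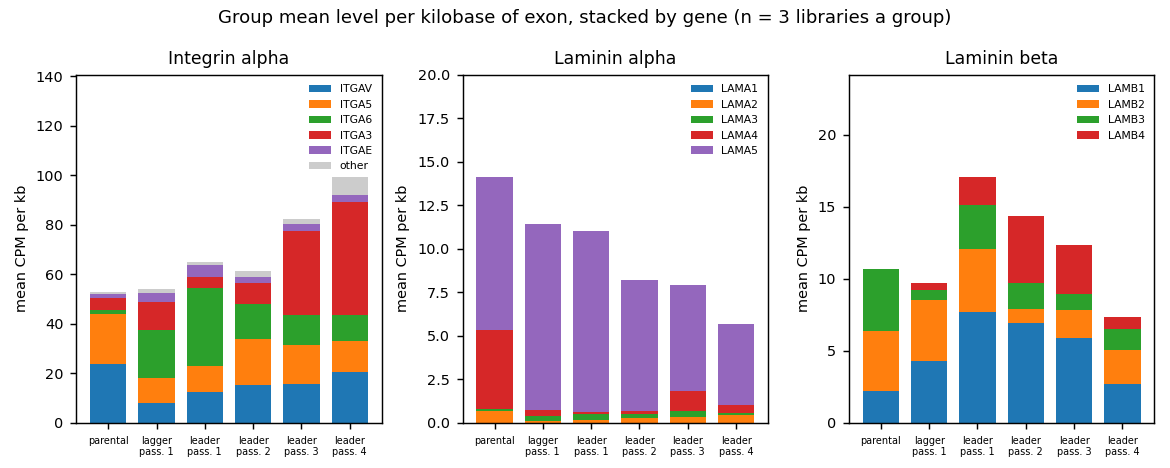
Group means (n = 3 libraries) in CPM per kilobase of exon (vertical axes) for integrin alpha, laminin alpha and laminin beta genes in the 6 groups (horizontal axes), stacked by gene. ITGA6 is the widest alpha band in passage 1 leaders at 31.7 and ITGA3 at passage 4 at 45.8, and LAMA4 is nearly gone in passage 1 leaders. LAMB4 has the second highest mean among beta chains at passages 2 and 3, and at passage 3 it overlaps LAMB2.

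Passage 1 leaders were compared with passage 1 laggers directly, and 0 of the 29 tested members passed with edgeR, beside 0.0618% of all tested genes (0.0185% higher and 0.0432% lower). At an unadjusted p under 0.05 there were 9 members, beside 14.4% of all tested genes. LAMB4, LAMB1, ITGB4, ITGB1 and LAMB3 had higher means in leaders, and ITGA3, LAMC3, LAMA4 and ITGB2 lower ones. DESeq2 called 1 member, LAMA4, lower in leaders (log2 -2.47, adjusted p = 0.0277; edgeR -2.47 ± 0.77, adjusted p = 0.203), and limma-voom called 0, with 7 at an unadjusted p under 0.05. The libraries of both groups did not overlap for 7 of the 29, namely LAMC3, LAMA4, ITGB4, ITGA7, ITGAV, ITGB1 and ITGB2, beside 17.8% of all tested genes. ITGB4 averaged 12.3 ± 5.82 CPM in leaders and 2.58 ± 1.52 CPM in laggers (SD, n = 3), a log2 difference of 2.25 ± 0.80 (adjusted p = 0.252).

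Passage 4 leaders were also compared with passage 1 leaders. Repeated injection and the growth in culture between passages cannot be told apart in this comparison. Of the 29 members 9 passed, beside 20.0% of all tested genes, and with single libraries left out 5 to 8 did, the fewest without passage 1 leader replicate 3. Those higher at passage 4 were ITGA3, ITGA10, ITGAM, LAMA4 and LAMC1, and those lower were ITGA6, ITGAE, LAMA3 and LAMB1. Background shares in the 2 directions were 10.8% higher and 9.17% lower.

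Genes of the adhesion complex, the proteins that link integrins to actin and to signalling, were read from a list of 38, of which 37 were tested. In laggers 4 were higher and 16 lower than in the parental line, and in passage 1 leaders 5 and 17, with median log2 changes of -0.61 and -0.53. At passages 2, 3 and 4 the counts were 1 and 11, 2 and 8, and 4 and 7, with medians of -0.58, -0.31 and -0.09. Over all tested genes the medians lay between 0.00 and 0.09. Beside these counts, 39.3%, 45.7%, 29.9%, 24.6% and 27.7% of all tested genes passed in the same order. Lower calls took 17.8%, 22.4%, 14.8%, 10.8% and 12.9% of all tested genes. VCL, the vinculin gene, fell from 1025 ± 22.5 CPM to 195 ± 70.0 CPM in passage 1 leaders (SD, n = 3; log2 -2.39, adjusted p = 1.06e-06), and PXN, the paxillin gene, from 410 ± 92.0 to 68.1 ± 23.5 CPM (log2 -2.59, adjusted p = 8.55e-06). RSU1, a partner of the PINCH adaptor, rose in the same leaders, to 198 ± 16.6 from 89.5 ± 10.6 CPM (SD, n = 3; adjusted p = 2.74e-05). At passage 4 against passage 1 leaders 13 of the 37 were higher and 2 lower (median 0.43, against -0.02 over all genes), with ACTN4 at 252 ± 73.0 against 34.6 ± 7.13 CPM (SD, n = 3; adjusted p = 1.50e-05). Of all tested genes 10.8% were higher and 9.17% lower in that comparison.

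Of 29 basement membrane and other laminin partner genes, 20 were tested. Higher and lower counts against the parental line were 6 and 4 in laggers, then 6 and 6, 7 and 4, 5 and 4, and 6 and 4 over leader passages 1 to 4. Beside these counts, 39.3%, 45.7%, 29.9%, 24.6% and 27.7% of all tested genes passed in the same order. The list's median log2 change was 0.49, 0.05, 0.32, 0.24 and 0.11 in that order, against 0.09, 0.07, 0.00, 0.01 and 0.03 over all tested genes. NTN4, a netrin that binds laminin, had 1 or fewer counts per parental library (0.0123 ± 0.0214 CPM) and reached 11.2 ± 1.5 CPM in passage 1 leaders (SD, n = 3; adjusted p = 1.21e-05), then 0.321 ± 0.350 CPM at passage 4. BCAM, the Lutheran receptor for LAMA5, fell from 103 ± 35.5 to 19.9 ± 4.82 CPM in passage 1 leaders (SD, n = 3; log2 -2.37, adjusted p = 0.000386). COL17A1, a hemidesmosome collagen that works with ITGA6 and ITGB4, fell from 131 ± 45.2 to 9.21 ± 3.32 CPM in passage 1 leaders and was at 117 ± 8.07 CPM at passage 4 (SD, n = 3), higher than in passage 1 leaders by 3.67 ± 0.46 on the log2 scale (adjusted p = 9.20e-05).

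Of 32 other integrin ligands 25 were tested. Against the parental line 7 were higher and 5 lower in laggers, and 7 and 5, 8 and 6, 7 and 5, and 8 and 4 over leader passages 1 to 4. Beside these counts, 39.3%, 45.7%, 29.9%, 24.6% and 27.7% of all tested genes passed in the same order. List medians were 0.08, -0.00, 0.00, 0.00 and 0.10 on the log2 scale, against 0.09, 0.07, 0.00, 0.01 and 0.03 over all tested genes. FN1, the fibronectin gene, was 0.834 ± 0.463 CPM in the parental line, 129 ± 101 CPM in passage 1 leaders and 1928 ± 813 CPM at passage 2 (SD, n = 3; adjusted p = 0.000180 and 3.09e-05). VCAM1, a ligand of alpha 4 integrins, rose from 13.5 ± 5.14 CPM to 530 ± 78.3 CPM at passage 2 and 754 ± 308 CPM at passage 3 (SD, n = 3; adjusted p = 0.000633 and 0.000435), while ITGA4 was at 0.185 CPM or less in every group mean. TGFBI, a matrix ligand of ITGA3 and ITGAV receptors, fell from 17.4 ± 2.77 to 1.51 ± 0.763 CPM at passage 2 (SD, n = 3; adjusted p = 0.000166).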

How the data were processed

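RNA was measured in 18 MiaPaCa-2 libraries (SMART-Seq v4 kit and paired-end reads, per the labels' protocols; this kit does not mark strand). The authors' deposited table gives raw read counts for each gene. Its tools, by the submitters' processing notes, were HTSeq 0.5.3, STAR 2.5.0a, cutadapt 1.6 and DESeq 1.22.1. Neither genome build nor annotation is named in the sources used here. Reads that fit more than one gene model stand in an entry of ambiguous reads, outside the gene counts. The 5 entries that name no gene held 27.6% to 60.6% of all entries and were left out of library sizes and tests.

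Members and gene lists were chosen with earlier results of these data known. Results of 1 tested member are not reported here, and the counts and medians over members include it. Groups came from the titles. edgeR 4.0.16 in R 4.3.3 fitted all 18 libraries at once, with 1 mean per group, TMM scaling and the edgeR filter on low expression (16187 genes tested), by quasi-likelihood F tests in 7 comparisons. P-values were adjusted by Benjamini-Hochberg over all tested genes. Standard errors of log2 changes were taken from the F statistic. The biological coefficient of variation was 35.5%. CPM uses TMM-scaled library sizes, summed over the tested genes. CPM per kb divides by merged exon length in GENCODE 29, which held 51812 of the 57445 identifiers. Count ratios are ratios of summed counts over TMM-scaled library sizes, with exact 95% intervals, which cover counting error only. The steps were tested on simulated data. No pair of replicates agreed within sampling noise (chi-square over degrees of freedom, 19.556 to 219.059).

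Reported members with a group mean of 10 CPM or more that passed the test are given by library, in some groups by mean and SD only. LAMA5, which passed in no comparison, is given by mean and SD. Genes named from the adhesion, basement membrane and ligand lists are among the 4 of their list with the smallest adjusted p over the comparisons, except RSU1, VCAM1 and CDH1; these and the cell type markers named were chosen after their values were seen. Deviations from the group mean in same-numbered libraries of laggers and the parental line had correlations of 0.106, 0.127 and 0.401. For lagger replicates 2 and 3 the same number was the best match among parental libraries, and for replicate 1 it was not. A block by number was therefore also fitted. The reason for it comes from these values, not from the labels. Promoters are from RefSeq (GRCh38.p14). Alternatives were DESeq2 1.42.0, limma-voom (limma 3.58.1), no TMM, RLE factors, no filter, a filter of 1 CPM in 3 libraries, a replicate block, only the 2 groups compared, and leaving out each library.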

Additional observations from a re-analysis of the deposited data

Results flagged for a closer look

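Leaders of passages 4 and 1 differed from each other, by edgeR's quasi-likelihood test of the difference itself, in 9 member genes. As log2 differences, passage 4 minus passage 1, ITGA10 was at 4.69, ITGA3 at 3.34, ITGAM at 3.34, LAMA4 at 2.96 and LAMC1 at 1.09. In the other direction LAMA3 was at -2.64, ITGA6 at -1.61, LAMB1 at -1.51 and ITGAE at -0.94. ITGA3, ITGAM, ITGA10 and LAMA4 passed with each compared library left out. LAMB1, LAMA3, LAMC1, ITGA6 and ITGAE were lost on leaving out at least 1 library. Passage 1 leader replicate 2 had the lowest ITGA6, ITGA3, LAMB1 and LAMB4 of its group and the highest LAMA3, and its part in these differences was not tested beyond the values without it.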

How the results depend on the processing

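Of 77 member calls in the 7 comparisons, 51 passed with every single library left out and 26 did not. Among 1069 values under alternatives 0 changed direction. Calls lost numbered 8 with limma-voom, 4 with no filter, 4 with the replicate block, 4 with only the 2 groups compared, 3 without TMM, and 0 with DESeq2, RLE factors or the 1 CPM filter. Those lost with limma-voom included ITGA11 at passages 3 and 4 and ITGA2 in laggers and leaders of passages 1 and 4. They also included ITGAE at passage 2 (adjusted p = 0.0529) and ITGA6 at passage 4 against passage 1 (0.0817). With the replicate block the lost calls were ITGA2 in laggers (given above), LAMA4 at passage 3 (adjusted p = 0.0737), ITGB4 at passage 4 (0.0512) and ITGB1 at passage 4 (0.0534). The block changed no other member call. Outside laggers against the parental line, only passage 4 leader replicate 3 matched best with its own number (correlation 0.218 with the parental library). Leaving out 1 library gave 12 to 15 called members in laggers and 13 to 17, 10 to 12, 9 to 10 and 9 to 13 over leader passages 1 to 4 against the parental line. It gave 0 to 0 for leaders against laggers and 5 to 8 for passage 4 against passage 1. Over all genes these ranges were 5257 to 6392, 5971 to 6903, 3167 to 4414, 2491 to 3761, 2996 to 4045, 0 to 52 and 1512 to 2821. The libraries that moved a count of members by over 1.5 times were parental replicate 1 at passage 4 (9 in place of 14) and, for passage 4 against passage 1, passage 1 leader replicate 3 (5 in place of 9). Those that moved a count over all genes by as much were parental replicate 3 at passages 2 and 3 (3167 and 2589 of all genes), passage 2 leader replicate 3 (3188), passage 3 leader replicate 1 (2491), and, for passage 4 against passage 1, leader replicate 3 of passage 1 (2113) and of passage 4 (1512). For leaders against laggers each library did: 52 genes without lagger replicate 1, 1 without lagger replicate 3, 3 without leader replicate 2, and 0 without lagger replicate 2 or leader replicate 1 or 3, where edgeR gave 2210, 1882 and 1984 at an unadjusted p under 0.05. Laggers against the parental line gave 3355 genes with only the 2 groups compared, against 6363, and the cause was not tested. For passage 1 leaders against laggers, edgeR gave 10 genes in all. The same comparison gave 257 with no filter, 3 with the replicate block, 27 with limma-voom, 372 with DESeq2, and 0 with only the 2 groups compared in edgeR, where 1197 had an unadjusted p under 0.05. Among members that comparison gave 1 with no filter and 1 with DESeq2, LAMA4 in both. The cause was not tested. No scaling moved the median of all genes by over 0.1. The lowest depth, 15113462 counts, limits members under 1 CPM.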
